A study of Drosophila melanogaster with 8 samples.

Results

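The DNA content of ovaries was followed along the chromosomes in the 4 input libraries of a chromatin immunoprecipitation study in Drosophila melanogaster, chosen by their group labels from the 8 libraries of the series. An input is the part of the sheared chromatin, here 5% of each sample, that is kept back and sequenced with no antibody, so its reads follow the amount of DNA. The shSov inputs (2 libraries) came from adult ovaries of flies with the MTgal4 driver and the shSov hairpin, named for Sov. The shW inputs (2 libraries) came from adult ovaries of flies with the same driver and the shW hairpin, taken here as the control. Both genotypes carried MTgal4, a maternal driver used to express hairpins in germ cells, and whole ovaries, with the somatic follicle cells, were collected. All flies were kept at 24 °C and fed yeast before dissection. The labels give neither the age of the flies nor how many ovaries were pooled, and nothing in them says that the 2 libraries of a genotype came from separate flies. The p-values therefore measure the spread between these libraries, which may be technical. Input DNA gives no check of the hairpin's effect on Sov or on white.

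Many cells of the fly ovary are polyploid. Nurse cells and follicle cells replicate their DNA repeatedly without dividing, and in such cells sequence near the centromeres can lag behind, which is called under-replication. Late follicle cells also copy a few chorion gene regions over and over, so that eggshell proteins can be made quickly. A female has the same number of X chromosomes as of each autosome, and chromosome 4 is a very small autosome whose chromatin carries many marks of heterochromatin.

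Reads were counted by the authors in 168724 windows of 1 kb on the 14 nuclear scaffolds of build dm3, and were summed here in bins of 10 kb and 100 kb. A level is given as reads per kb and per 1000000 reads outside chrM. A relative level is that value divided by the library's median over bins of the autosomal arms 2L, 2R, 3L and 3R that lie more than 2 Mb from the end facing the centromere. The shSov inputs held 27936554 and 26344449 nuclear reads, against 13688044 and 9758507 in the shW inputs. The median tested 10 kb bin held 2064 and 1934 reads in the shSov inputs, against 974 and 752 in the shW inputs. No sequence is printed because a dm3 genome was not used here.

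The 2 shW inputs differed from each other more than the 2 shSov inputs did. Across tested 10 kb bins of the arms and chromosome 4, the log2 difference between libraries of one genotype had an SD of 0.06 in shSov and 0.15 in shW. For the shSov mean over the shW mean it was 0.17. The fold between the 95th and the 5th percentile of arm bins was 2.9 and 2.87 in the shSov inputs, against 3.39 and 2.8 in the shW inputs. Both shSov inputs thus lay between the steeper shW replicate 1 and the flatter shW replicate 2. The median log2 ratio of shW replicate 2 over replicate 1 was 0.11 among the lowest 2146 arm bins and -0.15 among the highest 2146. Between shSov replicates 2 and 1 these medians were 0.02 and -0.01.

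Set against that spread, edgeR's quasi-likelihood test called 1136 of 12032 tested 10 kb bins higher in shSov (9.44% of those tested) and 1132 lower (9.41%) at a Benjamini-Hochberg adjusted p under 0.05. Tested bins had a mean level of at least 2 over the 4 inputs. Of the 1230 tested 100 kb bins, 176 were higher (14.3%) and 175 lower (14.2%). Most differences were small. Over the 11712 tested 10 kb bins of the arms and chromosome 4, the median absolute log2 difference was 0.09, and 634 differed by at least 0.3. These counts rest on how alike the libraries of a genotype are. Without shSov replicate 1 the 10 kb counts were 111 higher and 184 lower, and without shSov replicate 2 they were 95 and 79. Without shW replicate 1 they were 2121 and 2549, and without shW replicate 2 they were 2591 and 1909. At 100 kb the same 4 removals gave 14 higher and 43 lower, 14 and 26, 305 and 343, and 331 and 268. With the filter on low bins removed, 1760 bins of 10 kb were higher and 1151 lower, and 333 and 167 of 100 kb, so that 60.5% and 66.6% of the calls were higher, against 50.1% of the calls with it at either size. With totals taken over the distal autosomal arms, 40.1% of the calls at 100 kb were higher.

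On the large arms the copy profile was close to even between chromosomes. The median relative level of the X was 1.01 and 1.03 in the shSov inputs, against 1.06 and 1.03 in the shW inputs. Its mean was 1.02 ± 0.01 in shSov and 1.05 ± 0.02 in shW (SD, n = 2 each), and the exact permutation test, taken two-sided, had p = 0.33, the lowest value it can take with 2 libraries on each side. The genotypes did not overlap, by a narrow margin, and the difference of -0.03 was about the SD of the shW inputs. A lower level of a stretch can come from fewer nuclei of some cell type or from fewer copies in each, among other causes. In whole ovaries these cannot be told apart for the arms, their proximal ends, chromosome 4 or the chorion regions. The level profile also differed between the shW inputs, which share a genotype, and a correction for GC content was not run. Among the autosomal arms, 2L had the lowest median, at 0.947 ± 0.006 in shSov and 0.950 ± 0.009 in shW (SD, n = 2 each). Arm 2R had the highest of the large arms in shSov, at 1.079 ± 0.003, against 1.03 ± 0.01 in shW (SD, n = 2 each). On 2R, 282 of 2063 tested 10 kb bins were higher in shSov and 127 lower, which is 13.7% and 6.16%. On the X 185 of 2163 were higher and 247 lower, which is 8.55% and 11.4%. Over all tested bins 9.44% were higher and 9.41% lower, so the shares of the X were near those of all bins. Each split turned without one of the shSov libraries, that of 2R without replicate 1 and that of X without replicate 2. Without shSov replicate 1, 2R had 14 bins higher and 23 lower and X had 17 and 19, and without shSov replicate 2, 2R had 16 and 10 and X had 10 and 6. Without shW replicate 1 the counts were 513 higher and 299 lower on 2R, and 425 and 529 on X, and without shW replicate 2 they were 650 and 259 on 2R, and 349 and 426 on X.

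**Figure D1:**
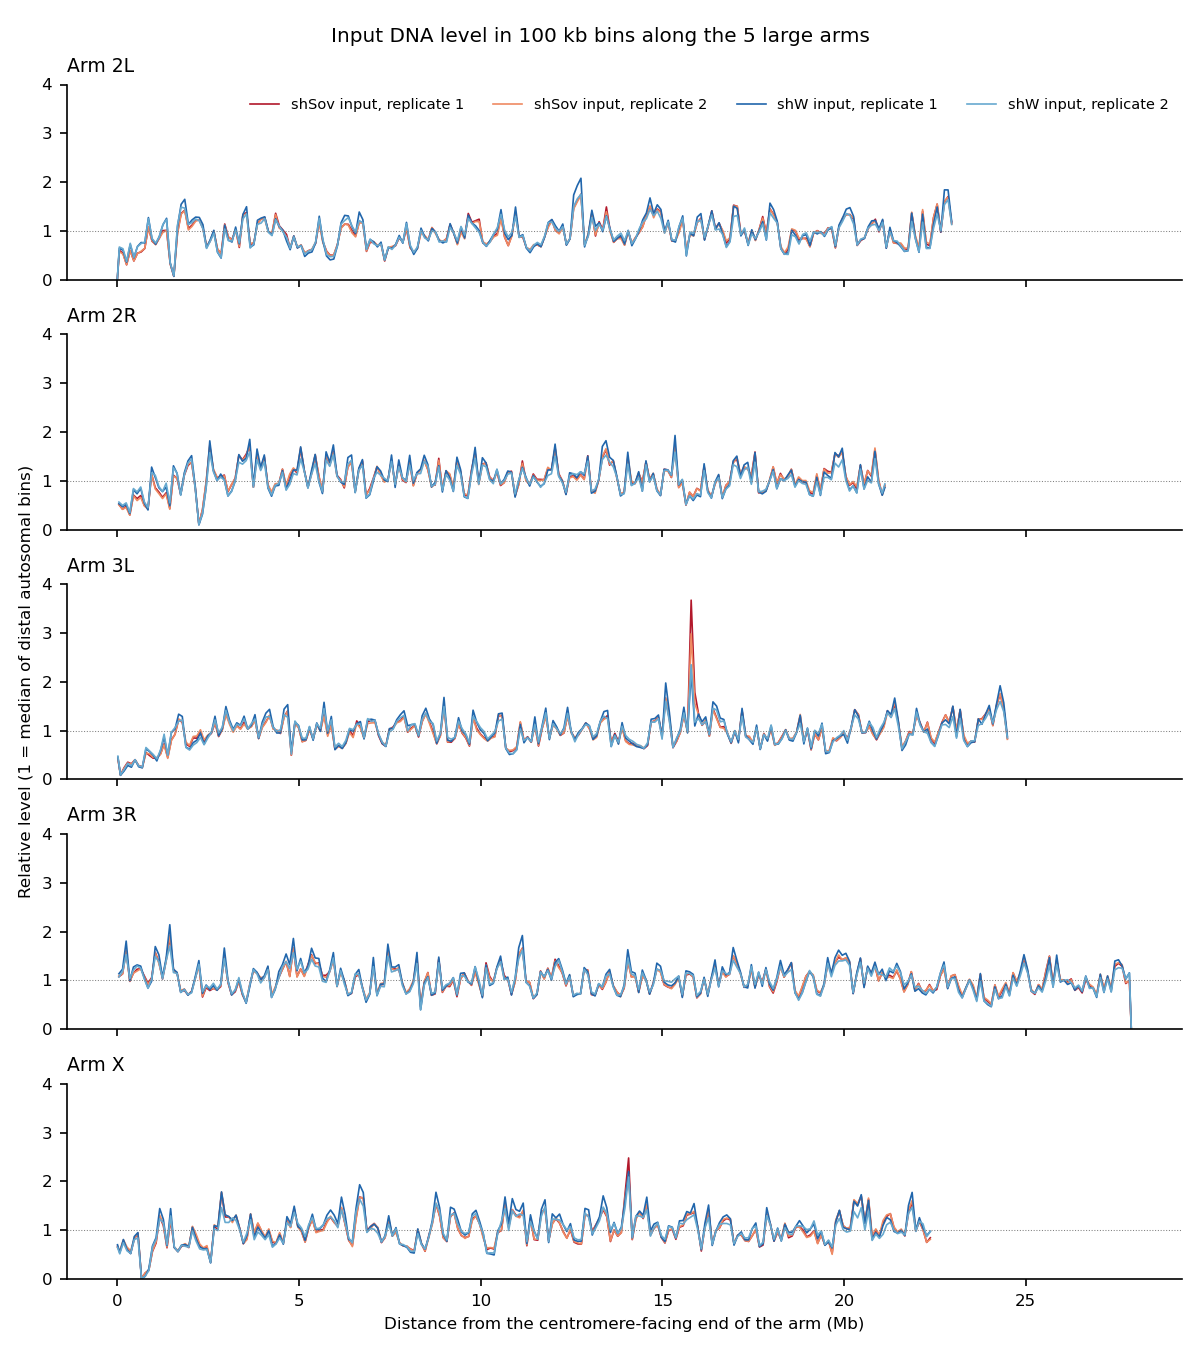
Relative input level in 100 kb bins (y axis, 1 is the median of distal autosomal bins) against the distance from the centromere-facing end in Mb (x axis), for the 4 inputs on 5 arms. The lines of the 4 libraries lie close together, fall on the left of 2L, 2R, 3L and X but not 3R, and rise to a single tall peak on 3L, where both shSov lines are above both shW lines.

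Representation fell towards the centromere on 2L, 2R, 3L and X and did not fall on 3R. Over the 5 arms together, the mean level of the proximal 1 Mb was 0.622 and 0.617 of the median distal level in the shSov inputs, against 0.656 and 0.657 in the shW inputs. In 100 kb bins the fall was a little deeper in shSov, at 0.619 ± 0.003 against 0.6562 ± 0.0004 in shW (SD, n = 2 each), with p = 0.33 in the exact permutation test. With 10 kb bins the ratios were 0.687 and 0.684 in the shSov inputs, against 0.744 and 0.707 in the shW inputs. The closeness of the 2 shW inputs to each other thus depended on bin size, with an SD of 0.026 at 10 kb. Windows with no read in any input count as 0 in these levels, and they made up 12.7% of the 1 kb windows in the last 0.5 Mb of the arms, against 2.46% beyond 10 Mb. When only windows with a read in all 4 inputs were used, the ratios in 100 kb bins were 0.723 and 0.722 in the shSov inputs, against 0.762 and 0.766 in the shW inputs.

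The arms differed in how they fell. In the last 0.5 Mb of 3L, the lowest stretch, the mean relative level was 0.303 and 0.291 in the shSov inputs, against 0.261 and 0.275 in the shW inputs. Next to it, between 0.5 and 1 Mb, 3L had 0.439 and 0.443 in shSov, against 0.488 and 0.488 in shW. So the order of the genotypes turned round between neighbouring stretches of 3L, and in both the groups did not overlap. From 1 to 2 Mb 3L had 0.815 and 0.820 in shSov, against 0.896 and 0.851 in shW, again with no overlap. Of its 39 tested bins from 0.5 to 1 Mb, 11 were called lower and 1 higher. From 1 to 2 Mb, 27 of 89 were lower and 11 higher. Within the last 0.5 Mb, 25 of the 51 bins of 3L passed the filter, of which 7 were higher in shSov and 2 lower, where 9.44% and 9.41% of all tested bins were. With either shSov library left out 1 of these was higher and 0 lower, without shW replicate 1 the counts were 4 and 2, and without shW replicate 2 they were 16 and 1.

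On arm 2L, the last 0.5 Mb stood at 0.518 and 0.509 in the shSov inputs, against 0.603 and 0.600 in the shW inputs. The next stretch, from 0.5 to 1 Mb, stood at 0.770 and 0.774 in shSov, against 0.934 and 0.892 in shW. On 2R the last 0.5 Mb stood at 0.524 and 0.513 in shSov, against 0.587 and 0.593 in shW. In these stretches, and from 1 to 2 Mb on both arms, both shSov inputs lay below both shW inputs. The same order was seen on 3L from 0.5 to 2 Mb, so it was not particular to 2L and 2R. From 2 Mb outwards the libraries of the genotypes overlapped at every step on 2L and 2R.

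Of the 345 tested 10 kb bins in the last 2 Mb of 2L and 2R, edgeR called 135 lower in shSov and 10 higher, where 9.41% of all tested bins were lower. Their median log2 fold change was -0.14, against 0.01 over all tested bins. Without shSov replicate 1 the count of lower bins was 37 and without shSov replicate 2 it was 17, while the median stayed between -0.20 and -0.11 whichever library was left out. From 2 to 3 Mb, 10 of 93 tested bins of 2L were higher and 3 lower, and 19 of 87 bins of 2R were higher and 5 lower, where 9.44% and 9.41% of all tested bins were. On 3R, from 2 to 3 Mb, 0 of 99 bins were higher and 8 lower, with 0 and 9 by DESeq2. With either shSov library left out at most 1 bin of 2L or 2R was higher in that step and 0 lower. Without shW replicate 1 and shW replicate 2 the higher bins numbered 19 and 17 on 2L, and 25 and 43 on 2R.

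Arm 3R began high. Its last 0.5 Mb had a mean relative level of 1.29 and 1.3 in the shSov inputs, against 1.42 and 1.28 in the shW inputs, and the groups overlapped. On the X, the last 0.5 Mb had 0.7 and 0.732 in shSov, against 0.723 and 0.656 in shW, again with overlap. From 0.5 to 1 Mb the X fell further, to 0.434 and 0.437 in shSov, against 0.461 and 0.408 in shW. In that stretch 39.4% of windows held no read, and among windows with a read in all 4 inputs the level was 0.935 and 0.939 in shSov, against 1.03 and 0.911 in shW.

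**Figure D2:**
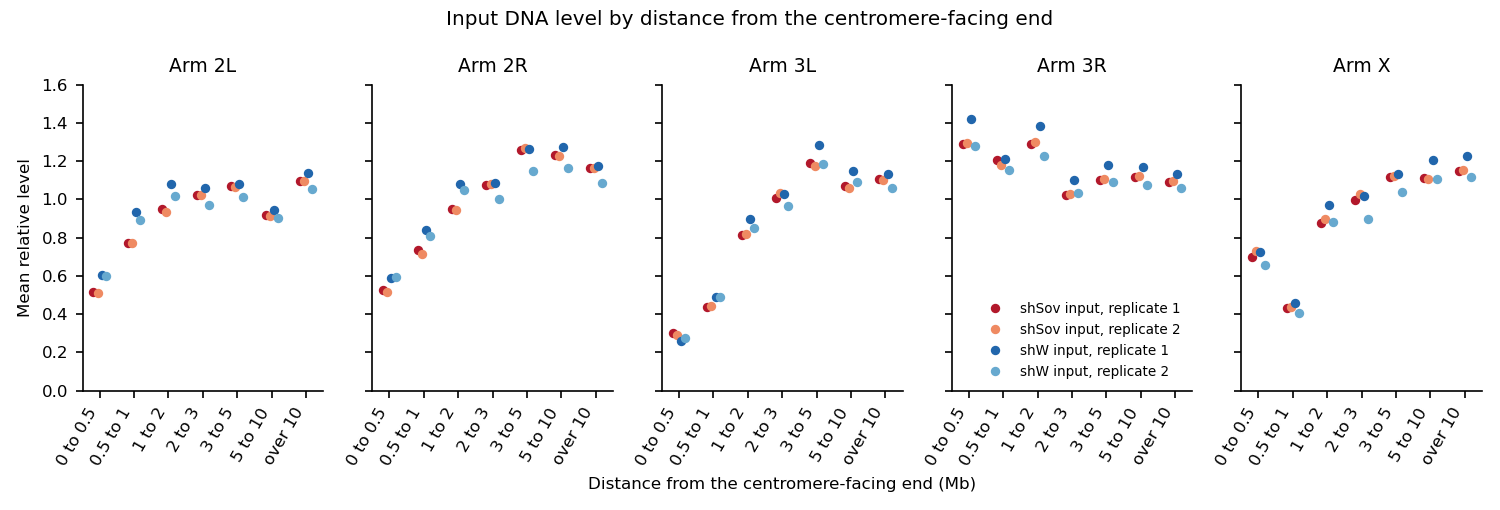
Mean relative level (y axis) in steps of distance from the centromere-facing end (x axis, Mb) on 5 arms; each point is 1 library. On 2L and 2R the shSov points lie below the shW points up to 2 Mb. On 3L they lie above within 0.5 Mb and below from 0.5 to 2 Mb, and on 3R the level does not fall.

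The largest difference that covered a whole chromosome was on chromosome 4. Its median relative level at 10 kb was 1.18 and 1.12 in the shSov inputs, against 1.49 and 1.52 in the shW inputs. The means were 1.15 ± 0.04 in shSov and 1.5 ± 0.02 in shW (SD, n = 2 each), a log2 difference of -0.39, larger than the spread within either genotype. The two-sided exact permutation p was 0.33, also after Benjamini-Hochberg adjustment over the ratios for the X, the proximal arms and chromosome 4. At 10 kb, chromosome 4 thus stood above the median of the distal autosomal arms in both genotypes, and nearer to it in shSov. With 100 kb bins its median was 1.07 and 1.02 in the shSov inputs, against 1.39 and 1.43 in the shW inputs. The level of the whole chromosome was 7.92 ± 0.32 in shSov and 10.37 ± 0.38 in shW (SD, n = 2 each). The shSov mean lay between those of arms 2L (7.59) and 2R (8.52), while the shW mean lay above every autosomal arm. An excess over the arms was thus not shown in shSov.

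The lower level ran along the length of the chromosome. Of 136 bins of 10 kb, 123 were tested. Of these, edgeR called 114 lower in shSov (92.7%) and 1 higher, where 9.41% and 9.44% of all tested bins were. Fold changes on the log2 scale ran from -0.65 to 0.28 with a median of -0.40 and an interquartile range from -0.47 to -0.31. All 13 tested bins of 100 kb were lower in shSov, by between -0.29 and -0.45. The most affected of these, from 200001 to 300000, had a relative level of 1.08 and 1.01 in the shSov inputs, against 1.41 and 1.49 in the shW inputs (log2 -0.45, edgeR adjusted p = 2.9e-31). The least affected, from 700001 to 800000, had 1.08 and 1.03 in shSov, against 1.27 and 1.34 in shW (log2 -0.29, edgeR adjusted p = 1.0e-16).

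Both ends of the chromosome were poorly covered. In its first 100 kb, 42 of the 1 kb windows held no read, and the relative level was 0.511 and 0.482 in shSov, against 0.695 and 0.654 in shW. Its last stretch past 1300000 held almost no reads in any library. The one bin called higher, from 1280001 to 1290000, had 0.546 and 0.541 in shSov, against 0.462 and 0.444 in shW. With the first and last 100 kb left out the log2 difference was still -0.39. The number of bins called lower fell to 62 without shSov replicate 1 and to 28 without shSov replicate 2, was 119 without shW replicate 1 and 110 without shW replicate 2, and the log2 difference of the whole chromosome stayed between -0.43 and -0.35 in all 4 cases.

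**Figure D3:**
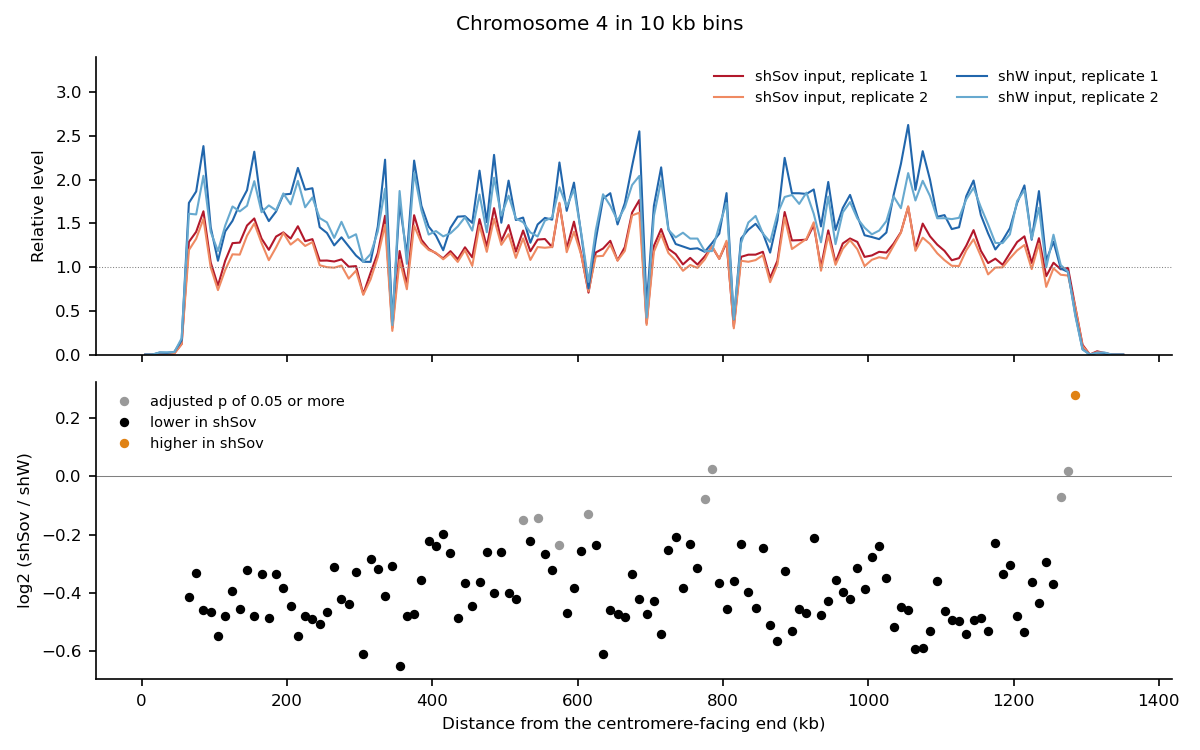
Chromosome 4 in 10 kb bins against the distance from its centromere-facing end in kb. Above, relative level per library; below, edgeR log2 fold change of each tested bin, with 114 of 123 bins called lower in shSov (black), 1 called higher (orange) and the rest not called (grey).

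The highest 10 kb bins of the arms lay at the chorion region 66D, where both shSov inputs stood above both shW inputs. The 5 chorion regions of the list were placed by approximate position from general knowledge: 66D and 62D on 3L, 7F on X, and 30B and 34B on 2L. Each holds genes or an origin that late follicle cells amplify. For a region, the level of its highest 10 kb bin was divided by the library's median over the arm.

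At 66D, the chorion cluster of chromosome 3, the highest bin (3L 8710001 to 8720000) reached 10.6 and 8.18 times the arm median in the shSov inputs, against 5.48 and 5.24 in the shW inputs. Both shSov values lay above both shW values, and the shSov inputs also differed from each other. The means were 9.39 ± 1.70 in shSov and 5.36 ± 0.17 in shW (SD, n = 2 each), with a two-sided exact permutation p of 0.33, and 0.556 after Benjamini-Hochberg adjustment over the 5 regions. For that bin edgeR gave a log2 fold change of 0.79 and an adjusted p of 0.135, so the summit itself was not called.

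The shoulders of the peak were called. From 3L 8640001 to 8710000 every 10 kb bin was higher in shSov by edgeR, and the level climbed from 1.33 and 1.28 to 3.75 and 3.06 times the arm median in shSov, and from 0.979 and 1.02 to 1.94 and 2.23 in shW. At 8670001 the level was 2.92 and 2.47 times the arm median in shSov, against 1.29 and 1.37 in shW (log2 1.00, edgeR adjusted p = 1.7e-15). At 8690001 it was 3.78 and 3.00 in shSov, against 1.56 and 1.76 in shW (log2 1.01, edgeR adjusted p = 8.2e-11). On the other side of the summit, at 8750001, it was 2.58 and 2.22 in shSov, against 1.59 and 1.70 in shW (log2 0.53, edgeR adjusted p = 8.4e-05).

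Measured as width, the stretch around the 66D summit at 2 times the arm median or more spanned 110 and 90 kb in the shSov inputs, against 30 and 50 kb in the shW inputs. In all, 14 of the 30 bins of the region were higher in shSov and 0 lower, where edgeR called 9.44% of all tested bins higher. At an unadjusted p under 0.05 edgeR had 16 higher and 0 lower, and DESeq2 called 12 and 0. The count of higher bins was 5 without shSov replicate 1 and 5 without shSov replicate 2, 15 without shW replicate 1, where 2 bins were lower, and 19 without shW replicate 2. At 1 kb the highest window stood at 18.5 and 14.3 times the arm median in shSov, against 9.35 and 7.31 in shW.

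At 7F, the chorion cluster of the X, the highest bin (X 8370001 to 8380000) reached 3.56 and 3.04 times the arm median in the shSov inputs, against 3.78 and 3.29 in the shW inputs. The groups overlapped, and edgeR gave a log2 fold change of -0.13 with an adjusted p of 0.679. The stretch around the 7F summit at 2 times the arm median or more spanned 40 kb in each of the 4 inputs. At 1.5 times it spanned 110 and 110 kb in shSov, against 50 and 50 kb in shW. The sign of the 7F difference changed when 1 kb windows, the mean of the region, or the libraries without shSov replicate 2 or shW replicate 1 were used. Beside the summit, the 6 bins from 8300001 to 8360000 were each higher in both shSov inputs, with log2 fold changes from 0.18 to 0.33, and 0 of them passed edgeR's adjusted threshold, with adjusted p from 0.058 to 0.202. Of the 30 bins of the region, 2 were called higher and 2 lower, beside 9.44% and 9.41% of all tested bins. With either shSov library left out 0 bins were called, and without shW replicate 1 and shW replicate 2 they were 12 higher and 4 lower, and 11 and 5.

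The other chorion regions had lower summits than 66D and 7F, at heights that bins elsewhere on the arms also reached. At 62D the highest bin reached 2.18 and 1.99 times the arm median in the shSov inputs, against 1.69 and 1.44 in the shW inputs (log2 0.39, edgeR adjusted p = 0.0013). With 1 kb windows the 62D groups overlapped, at 2.57 and 2.44 in shSov, against 2.79 and 1.96 in shW. Of the 30 bins of 62D, 10 were called higher and 1 lower. At 30B it reached 2.54 and 2.26 in shSov, against 2.06 and 1.99 in shW, which was not called (edgeR adjusted p = 0.149), with 4 of 40 bins higher and 0 lower. At 34B it reached 2.96 and 2.67 in shSov, against 2.69 and 2.1 in shW (edgeR adjusted p = 0.243), with 1 of 40 bins higher and 6 lower. The mean of the whole 34B region was 1.27 ± 0.04 in shSov and 1.28 ± 0.04 in shW (SD, n = 2 each). The bins called higher without shSov replicate 1, shSov replicate 2, shW replicate 1 and shW replicate 2 numbered 2, 2, 9 and 16 at 62D, 0, 0, 7 and 13 at 30B, and 0, 0, 5 and 8 at 34B. Those called lower numbered 0, 0, 14 and 5 at 34B and 0, 0, 5 and 1 at 30B. Over all tested bins 9.44% were higher and 9.41% lower, so the count of higher bins at 30B was near the share of all bins. At 30B, 2 bins were lower at an unadjusted p under 0.05 and 0 by DESeq2.

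**Figure D4:**
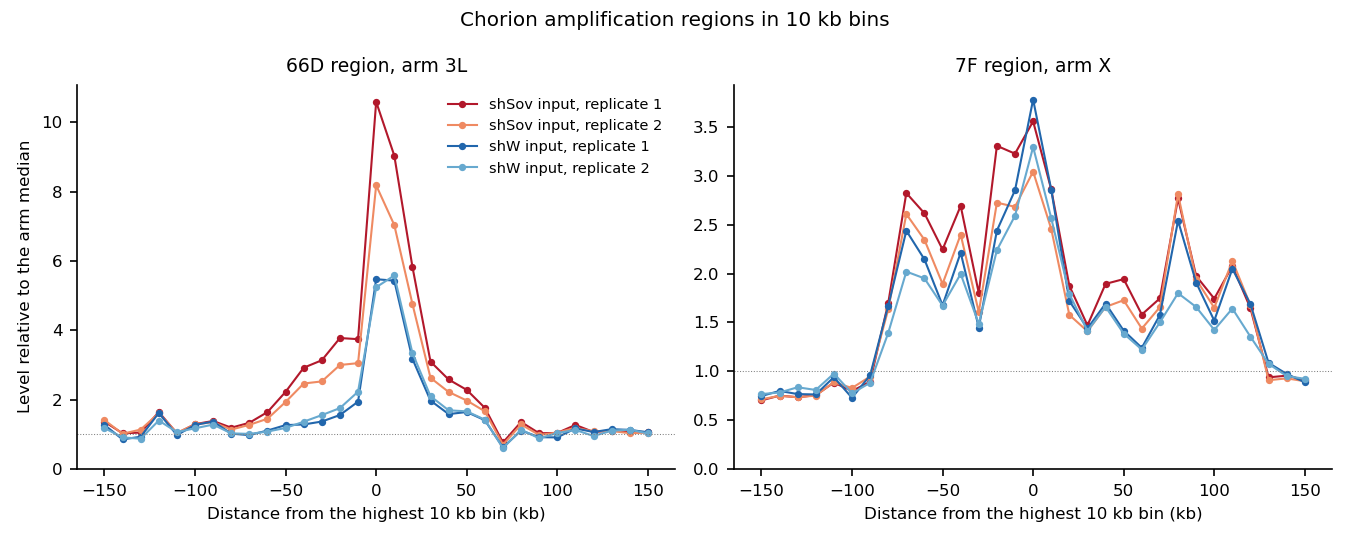
Level relative to the arm median (y axis) in 10 kb bins around the highest bin of 66D (left) and 7F (right), by distance in kb; each line is 1 library. At 66D both shSov lines lie above both shW lines from 80 kb before to 80 kb after the summit; at 7F the 4 lines cross at the summit.

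The list also held regions with no chorion genes, where 9.44% of all tested bins were higher and 9.41% lower. At the histone gene cluster of 2L, 62% of windows held no read and 7 of 20 bins were tested, of which 1 was lower. The bithorax complex of 3R, a Hox cluster that is silenced by Polycomb proteins in many cells, had a mean relative to the arm of 0.862 in shSov and 0.859 in shW, and edgeR called 0 of 40 bins, with 0 at an unadjusted p under 0.05 and 0 by DESeq2; without shW replicate 2 it called 6 higher. The Antennapedia complex, the other Hox cluster, had 0.893 in shSov and 0.931 in shW, with 2 of 50 bins lower, and 10 without shW replicate 1. At the Hsp70 heat shock genes, 1 of 10 bins at 87A was lower and 6 of 16 tested bins at 87C were higher, of which 2 and 1 were called without shSov replicate 1 and shSov replicate 2.

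Around white on the X, the gene the shW hairpin is named for, a 3 kb stretch (2684001 to 2687000) stood above its surroundings in every library. Its level was 19.3 and 19.2 in the shSov inputs, against 18.9 and 16.9 in the shW inputs, and the 10 windows before it had 8.25 and 8.41 in shSov, against 7.57 and 8.15 in shW. The step was 2.33 and 2.28 times in shSov, against 2.49 and 2.08 times in shW, so it was shared by the genotypes and overlapped between them. The stretch was picked after its values were seen. Of the 20 bins around it, 9 were called lower in shSov and 0 higher, with 11 and 2 at an unadjusted p under 0.05 and 9 and 0 by DESeq2, where 9.41% of all tested bins were lower. Without shSov replicate 1 and shSov replicate 2, 2 and 0 were lower and 0 higher. Without shW replicate 1, 11 were lower and 4 higher, and without shW replicate 2, 8 were lower and 2 higher.

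Across the arms and chromosome 4, 2195 of 12042 bins of 10 kb stood at 1.5 times their arm median or more, in 852 runs. Of these, 82 were called higher in shSov and 104 lower, below the 9.44% and 9.41% of all tested bins. Among the highest 2146 arm bins, 4.15% were higher and 4.29% lower. There the median log2 ratio of shW replicate 2 over replicate 1 was also furthest from 0, at -0.15. What part that spread has in the low shares was not tested. At 3 times the arm median, a threshold set after the values were seen because the runs were too many to name, 5 bins in 3 runs remained: the 66D summit, the 7F summit and 1 bin of 2R (930001 to 940000). That 2R bin had 3.09 and 3.22 times the arm median in shSov, against 4.16 and 3.06 in shW, with overlap. At the other end, 679 bins (5.64%) stood at 0.5 times their arm median or less, 17 of them on chromosome 4. Within 2 Mb of the centromere-facing end lay 44 of the 127 on 2L and 61 of the 140 on 2R. On 3L these were 94 of 169, on 3R 7 of 85 and on X 49 of 141. In all, the 5 arms have 253 bins within 0.5 Mb, 250 from 0.5 to 1 Mb and 500 from 1 to 2 Mb. In the 679 bins 44.5% of windows held no read, against 3.41% over all bins, and with only the windows read in all 4 inputs 177 bins remained.

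The single bins with the largest fold changes lay outside the peaks just described, apart from the 66D shoulder. The largest was near the tip of 3L. From 3L 20001 to 34000 the shSov inputs held 2035 and 1864 reads, against 6 and 4 in the shW inputs, and 9 of the 14 windows had no shW read at all. The mean level was 5.13 ± 0.11 in shSov and 0.030 ± 0.001 in shW (SD, n = 2 each), a ratio of 169. The next 10 windows, up to 44000, had 4.87 and 4.53 in shSov, against 5.22 and 5.62 in shW. The stretch thus ended sharply, and it was near absent from both shW libraries while the shSov libraries read it like its neighbour.

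Such near-absence was seen in one direction only. Of the 117085 windows of 1 kb with a level of at least 2 in both shSov inputs, 27 were at least 10 times lower in both shW inputs. Of the 116249 with that level in both shW inputs, 0 were at least 10 times lower in both shSov inputs. Of the 27, 13 lay in the 3L stretch, 5 on X, 4 on 3R, 2 on 2R, 2 on U and 1 on 2L. Their shSov counts were 55 to 253 reads. The shW inputs are shallower, with 0 to 2 reads in these windows, and what part the depth has in the count was not tested.

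Runs were formed from 1 kb windows, with a mean level of at least 1, in which every shSov input differed from every shW input by at least 1.4 times in one direction. Single windows short of that fold were allowed between them, and a run had 5 such windows or more. There were 48 runs higher in shSov and 9 lower, of which 16 and 3 held no window short of the fold. Of the higher ones, 26 lay on 3RHet. Windows could reach the mean level through their high shSov values alone, so these counts are no measure of all windows. On 3RHet, from 1458001 to 1464000, the level was 1.74 and 1.71 in shSov, against 0.609 and 0.547 in shW. On 2L, from 16702001 to 16710000, the level was 5.24 and 5.22 in the shSov inputs, against 10.7 and 10.8 in the shW inputs. On 2R, from 11134001 to 11139000, it was 18.1 and 17.5 in shSov, against 8.56 and 9.14 in shW. Both ratios were close to a doubling, 2.05 in favour of shW on 2L and 2.01 in favour of shSov on 2R. Another block, on 2R from 1152001 to 1161000, had 7.29 and 7.68 in shSov, against 2.95 and 3.30 in shW. On 3LHet, from 1219001 to 1227000, the level was 3.63 and 3.45 in shSov, against 7.02 and 8.2 in shW.

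By the rule for named bins, the other 10 kb bins highest in shSov were 4 of the unplaced scaffold Uextra, with levels of 3.04 to 17.4 in the shSov inputs, against 0.092 to 1.47 in the shW inputs. In each of them shSov replicate 2 was above replicate 1, and shW replicate 1 was above replicate 2. At 27210001 the shW inputs held 132 and 15 reads. The mean shW levels were 0.34 to 0.97, so these bins passed the filter through their high shSov values alone. Of 2901 bins of Uextra, 11 were tested. Those lowest in shSov were on 3LHet and 2L, as above, a Uextra bin at 380001 with 2.85 and 2.62 in shSov, against 4.76 and 5.15 in shW, and the adjoining 2RHet bins at 160001 and 170001. These 2RHet bins had 1.73 and 1.74, and 1.63 and 1.54, in shSov, against 2.81 and 2.75, and 2.62 and 2.43, in shW. On the arms, 3R 24310001 had levels of 9.16 and 9.62 in shSov, against 5.19 and 5.30 in shW, and 2L 5200001 had 11.7 and 11.8 in shSov, against 7.06 and 7.34 in shW.

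Longer runs of called bins were found at 100 kb. The longest run lower in shSov was that of 13 bins on chromosome 4 and the next were 8 bins each within 2 Mb of the proximal ends of 2L and 2R. The longest runs higher were 6 bins each on 2L, 2R and 3L. The 3L run, from 22100001 to 22700000, lies about 2.1 Mb from the centromere-facing end and had a mean level of 6.64 in shSov and 5.82 in shW. Of the named 100 kb bins, 2 lay in the 66D region and were higher in shSov. From 3L 8600001 the level was 14.4 and 12.5 in shSov, against 8.52 and 9.52 in shW. From 8700001 it was 29.6 and 23.9 in shSov, against 17.0 and 19.0 in shW. This run of called bins ended at 8800000, short of the end of the region at 8900000. A bin of U at 5300001 had levels of 10.4 and 16.4 in shSov, against 22.2 and 17.6 in shW; the shSov libraries differed from each other there by more than the nearer pair of genotypes.

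The scaffolds of mapped heterochromatin, which hold repeat-rich sequence next to the centromeres, did not move as one. The whole of 3RHet had a level of 1.64 and 1.66 in the shSov inputs, against 1.2 and 1.31 in the shW inputs, a log2 difference of 0.40. On 2RHet it was 1.70 and 1.66 in shSov, against 1.79 and 1.92 in shW (log2 -0.14). On 2LHet both shSov inputs lay above (log2 0.12), and on 3LHet and XHet the groups overlapped. YHet, from the Y chromosome that females lack, held 83 and 103 reads in the shSov inputs, against 44 and 31 in the shW inputs. Each two-sided exact permutation p was 0.33 or more, and 0.583 or more after Benjamini-Hochberg adjustment over 14 scaffolds.

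On 3RHet, 21 of 26 bins of 100 kb had both shSov inputs above both shW inputs and 3 had them below. Of the 8 that passed the filter, 3 had them above and 3 below, where 34.3% and 30% of all tested 100 kb bins did so. Of the 18 under the filter, 18 had them above and 0 below. Bins under the filter leaned that way on the other scaffolds too, with 284 of 445 above (63.8%) and 34 below (7.64%). The first 1.6 Mb stood at 1.09 and 1.12 in shSov, against 0.532 and 0.599 in shW, with ratios per bin from 1.36 to 2.81. None of these 16 bins passed the filter on low bins, so edgeR made no call there. The bins from 1.6 to 2.1 Mb did not share this; at 1800001 the level was 4.19 and 4.26 in shSov, against 4.75 and 5.07 in shW. The last 5 bins again stood above, at 1.97 and 2.01 in shSov, against 1.23 and 1.45 in shW. A similar contrast lay within 2RHet. Its first 0.5 Mb stood at 3.09 and 3.04 in shSov, against 3.99 and 4.13 in shW, while 8 bins from 1.8 to 2.6 Mb stood at 0.778 and 0.771 in shSov, against 0.345 and 0.444 in shW. These stretches were delimited from the values, so they are given with no test.

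Of 10 kb bins of 3RHet, 59 of 252 passed the filter. Of these, 27 were higher in shSov and 15 lower, where 9.44% and 9.41% of all tested bins were. Without shSov replicate 1 and shSov replicate 2 the counts were 21 and 1, and 16 and 0. A bin can pass through its high shSov values alone, so this count is no measure of all bins. With no filter 155 of 228 bins were higher and 14 lower, where 1760 and 1151 of 16589 bins of all scaffolds were. With the filter at a level of 4 the counts were 4 and 12 of 22, where 996 and 1045 of 11393 were. On 2RHet 1 of 98 tested bins was higher and 54 lower, and on 3LHet 13 of 87 were higher and 30 lower, beside the same 9.44% and 9.41%. Without shSov replicate 1 and shSov replicate 2, 23 and 12 bins of 2RHet and 7 and 2 of 3LHet were lower.

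**Figure D5:**
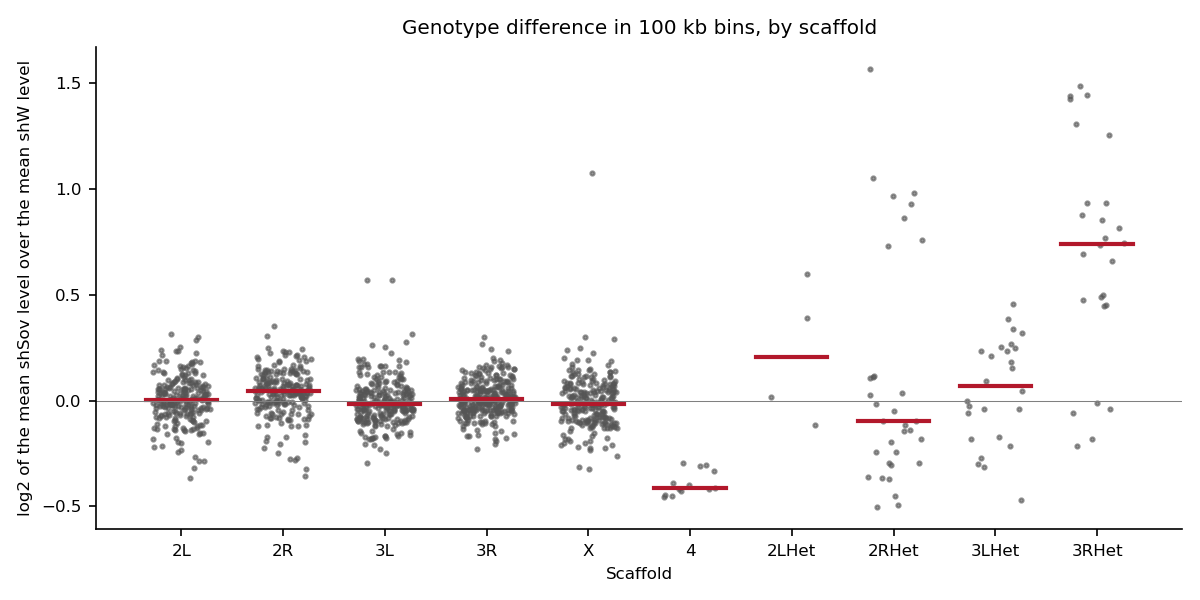
Log2 of the mean shSov level over the mean shW level (y axis) in each 100 kb bin with a mean level of at least 0.1, by scaffold (x axis); grey points are bins, with random sideways spread, and red lines are medians. The 5 large arms lie around 0, all plotted bins of chromosome 4 lie below 0, and most bins of 3RHet lie above 0.

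Unplaced sequence varied more within a genotype. U had a level of 0.994 and 1.45 in the shSov inputs, against 1.78 and 1.05 in the shW inputs, so the groups overlapped. Uextra had 0.0809 and 0.0952 in shSov, against 0.0462 and 0.0516 in shW, a log2 difference of 0.85, at levels where 65.3% of windows held no read in any library.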

How the data were processed

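Adult ovaries were fixed, sonicated and sequenced as single reads of 50 nt from fragments of 200 to 400 bp, per the labels' protocols. The submitters' processing notes name Bowtie, bedtools and dm3; versions, multi-mapping and duplicate handling are not given in the sources used here. For each 1 kb window the authors deposited a raw read count and an RPKM, which equals the count per kb and per 1000000 reads of the library in every window. Counts were summed here in 10 kb and 100 kb bins, and chrM was left out of totals and tests. The GEO labels gave the groups, and a title with the word repeat is replicate 2.

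Bins with a mean level of at least 2 were tested with edgeR 4.0.16 (quasi-likelihood, genotype only, library totals as offsets, no TMM; Benjamini-Hochberg, 0.05), and DESeq2 1.42.0 was an alternative. For single values the 4 libraries were permuted exactly, two-sided. On simulated counts for these 10 kb bins the test recovered 50% of 1.2-fold and 100% of 1.5-fold changes, and 1.32% of its calls were unchanged bins. The simulated bins were independent and had the same spread in all 4 libraries, whereas the real shW inputs differed more than the shSov inputs. The simulation thus gives no error rate for the real calls. Replicates differed beyond counting noise (chi-square per degree of freedom 5.16 in shSov and 8.15 in shW at 10 kb), so each counted as 1 sample. Intervals on counts are not given, because amplified reads are not independent molecules. The members and lists were chosen with earlier results of these data known. Named bins are the fixed regions, the 5 largest fold changes in each direction among called, non-overlapping bins of each size, and the ends of chromosome 4; further arm bins, short blocks and heterochromatin stretches were chosen after their values were seen.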

Additional observations from a re-analysis of the deposited data

Results flagged for a closer look

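The mitochondrial scaffold entered no comparison. It held 0.0912% of the reads of shSov input replicate 1 and 0.0138% of shSov input replicate 2, against 0.0044% and 0.0156% in the shW inputs. It is listed because the value of shSov replicate 1 lies above both shW inputs; shSov replicate 2 lies between them, so the groups overlap, and the cause was not tested.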

How the results depend on the processing

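No alternative turned the direction of the X, proximal or chromosome 4 ratios. Counts of 10 kb bins called higher and lower ran, over the fits that each left out one library, from 95 to 2591 and from 79 to 2549, and at 100 kb from 14 to 331 and from 26 to 343; the lone library of a genotype was then assumed to vary like the others. The chromosome 4 count ran from 28 to 119. In 1 fit over all 8 libraries, whose spread includes the ChIP libraries, the counts were 45 higher and 15 lower at 10 kb, 1 and 3 at 100 kb, and 1 lower on chromosome 4. Without the filter on low bins, 1760 of 10 kb and 333 of 100 kb were higher. With totals over the distal autosomal arms, 153 bins of 100 kb were higher and 229 lower. Same-numbered libraries deviated with a correlation of -0.16 at 10 kb and -0.32 at 100 kb, so the numbers are not shown to pair samples; with the replicate block, 759 and 793 bins of 10 kb, and 110 and 122 of 100 kb, were called higher and lower. With the numbers crossed, a pairing tried after seeing the data, the counts were 817 and 911, and 136 and 151. The log2 difference at 7F turned from -0.10 to 0.12 with 1 kb windows and to 0.12 with the region mean. Over the left-out libraries it ran from -0.22 to 0.0079. At 34B it turned to -0.0043 with the region mean, and at 62D it fell from 0.41 to 0.08 with 1 kb windows. Left-out libraries gave -0.06 to -0.01 for the X ratio, -0.09 to -0.08 for the proximal ratio, -0.43 to -0.35 for chromosome 4, 0.61 to 0.98 at 66D, 0.15 to 0.33 at 30B, 0.30 to 0.53 at 62D and 0.07 to 0.42 at 34B. Over-represented bins numbered 3325, 318 and 5 at 1.3, 2 and 3 times the arm median (the last tried after seeing the data), 21508 as 1 kb windows, and 2026 to 2332 without each library. Under-represented bins numbered 1344 and 365 at 0.7 and 0.3 times, 177 over windows read in all inputs, and 673 to 693 without each library. The planned correction for GC content was not run, since no dm3 genome was used here.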
